A study of Mus musculus with 14 samples.

Results

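Cytochrome P450 enzymes outside the small panels usually followed in hepatocyte culture were described in RNA-seq libraries of mouse hepatocytes, the main cell of the liver. Genes were taken by symbol, as Cyp with a family number, a subfamily letter and a gene number, and 93 genes of the 21878 in the tables matched. P450 genes with symbols of another form, among them Cyp4a12a, Cyp4a12b, Cyp3a41a, Cyp3a41b and Cyp51, did not match. Cyp2b10, Cyp3a11, Cyp2e1, Cyp1a2, Cyp7a1, Cyp7b1, Cyp8b1 and Cyp27a1 were left out, which left 85 genes. Of these, 54 belong to families 1 to 3, whose enzymes are known mainly for drugs and other foreign compounds, and 31 to family 4 and above, whose enzymes mainly handle fatty acids, steroids, retinoids and vitamin D.

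All libraries came from mice of strain C57BL/6, and the study asks whether blocking the activation of YAP by mechanical tension preserves hepatocyte function in vitro. There were 7 groups of 2 libraries. FH are hepatocytes taken straight after isolation, and FH Yap-/- are such cells labelled Yap-/-. BM 1D, BM 3D and BM 3W are hepatocytes held in the culture named BM for 1 day, 3 days and 3 weeks, BM 3W Yap-/- are Yap-/- hepatocytes in BM for 3 weeks, and LBDXL 3W are hepatocytes held for 3 weeks in the culture named LBDXL. The labels give neither the composition of BM and LBDXL nor the way Yap was deleted, and no age or sex of the animals. They do not say whether the 2 libraries of a group came from different animals or cultures, so p-values below measure the spread between these libraries, which may be technical.

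P450 enzymes are haem proteins of the endoplasmic reticulum or the mitochondria that insert an oxygen atom into their substrates. Those of the endoplasmic reticulum take electrons from P450 oxidoreductase, encoded by Por. The liver is their main site. Hepatocytes transcribe them under nuclear receptors such as CAR (Nr1i3), PXR (Nr1i2), PPAR alpha (Ppara) and the aryl hydrocarbon receptor (Ahr), and several mouse P450 genes are known to differ between male and female liver. Mouse subfamilies such as Cyp2c, Cyp2d and Cyp4a hold many near copies that arose by tandem duplication.

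Levels are CPM, the count of a gene over the library's total on a fixed scale, adjusted by TMM, which corrects for a few very abundant genes, unless FPKM, which is also divided by transcript length, is named. Depth ran from 15501005 to 21220365 counts per library. A gene is called, and said to have risen or fallen, where the adjusted p of edgeR's quasi-likelihood test was under 0.05 over the 14100 genes tested. A log2 fold change is followed by its standard error. Of the 85 P450 genes, 59 had enough counts to be tested, 41 in families 1 to 3 and 18 in family 4 and above. The other 26 never exceeded 18 counts in a library, and 6 of them had 0 counts in all libraries. Because of this filter, counts over the 59 say nothing of the 26.

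Several facts about the libraries bear on the results. Yap1 stood at 87.6 and 97.6 CPM in FH, 80.2 and 95.5 in BM 3W, 23.1 and 26.5 in FH Yap-/- and 6.66 and 7.75 in BM 3W Yap-/-. Ddx3y, Eif2s3y, Kdm5d and Uty lie on the Y chromosome and mark male cells. Their summed level was 312 and 308 CPM in FH and between 158 and 216 in the BM libraries, Yap-/- included, but 0.069 and 0 in the FH Yap-/- libraries, 0 in LBDXL 3W library 1 and 214 in LBDXL 3W library 2. This list was chosen after the values were seen. FH Yap-/- thus differs from FH both in its genotype label and in these Y-linked genes, and the contributions of the 2 cannot be told apart, while LBDXL 3W joins 2 libraries that differ in them. The 2 libraries of a group also differed by a median of 1.03 times in FH but 2.47 times in BM 3D, over P450 genes that averaged 5 CPM or more. BM 3W and BM 3W Yap-/- both carried the Y-linked transcripts.

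Marker genes of other liver cells also moved with the groups. The summed level of 7 hepatocyte markers was 197947 and 194032 CPM in FH, 207278 and 162109 in LBDXL 3W, 32362 and 3359.9 in BM 3W and 113182 and 97375 in its Yap-/- counterpart. Alb made up most of each sum, at 155088 and 149910 CPM in FH and 186886 and 129833 in LBDXL 3W. The median log2 fold change of the 7 in LBDXL 3W against FH was -0.84. Of them 1 was lower and 0 higher, where 9.6% of all tested genes were lower and 11.7% higher. All 7 stellate cell and fibroblast markers, all 5 cholangiocyte markers and 5 of 6 macrophage markers rose in BM 3W against FH. Of all tested genes 33% rose and 26.1% fell in this comparison. The stellate sum went from 71.9 and 59.1 CPM in FH to 7737 and 10053 in BM 3W, the cholangiocyte sum from 29.7 and 24.8 to 4431 and 5132 and the macrophage sum from 87.4 and 61.7 to 766 and 684. Most of the cholangiocyte sum was Spp1, at 25.2 and 21.8 CPM in FH and 4338 and 5038 in BM 3W. Krt19, Krt7, Epcam and Sox9 stood at 21.5 and 16.9, 21.0 and 18.0, 1.89 and 2.04 and 48.6 and 57.1 CPM in BM 3W. In BM 3W Yap-/- the stellate sum was 339 and 295 CPM, the cholangiocyte sum 111 and 93.7 and the macrophage sum 167 and 159. In LBDXL 3W these sums were 410.5 and 208, 27.3 and 14.6 and 1.90 and 2.66 CPM. Markers of sinusoidal endothelial cells went the other way, with 4 of 5 lower in BM 3W than in FH and none higher. Their sum was 90.4 and 73.0 CPM in FH, 99.7 and 2.90 in LBDXL 3W, 9.57 and 7.01 in BM 3W and 1.21 and 1.11 with the Yap-/- label, so that library 1 of LBDXL 3W was near FH and library 2 far below it. In these bulk libraries fewer hepatocytes and less P450 RNA per hepatocyte cannot be told apart, and the part of other cells in the P450 results was not tested.

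Fresh hepatocytes carried most of their P450 transcript in families 1 to 3. Summed over the 85 genes, FH reached 6318 and 6347 FPKM, of which families 1 to 3 held 91.9 and 91.8%. Cyp2f2, which activates naphthalene and is typical of periportal hepatocytes (chromosome 7, 27119955 to 27133660 in GRCm38.p6), was the most abundant at 876 and 862 FPKM. Cyp2d9, a testosterone hydroxylase of male liver, followed at 833 and 814 FPKM, and Cyp2a5, the coumarin hydroxylase, at 728 and 737. Each of these exceeded the next in both libraries. Cyp2c29, a CAR-responsive enzyme, stood at 412 and 429 FPKM. In family 4 and above Cyp4v3, a fatty acid omega-hydroxylase, led with 174 and 178 FPKM. Steroidogenic and vitamin D enzymes were scarce: Cyp17a1 had 4.07 and 3.92 FPKM, and Cyp11a1, Cyp19a1 and Cyp24a1, which act in steroid synthesis and vitamin D breakdown, had too few counts to test.

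In BM culture 36 of the 59 tested P450 genes had fallen after a day, among them most of the Cyp2c, Cyp2j and Cyp4a genes, and after 3 weeks 44 had fallen. Few rose, chiefly Cyp4f16 and, at 3 weeks, Cyp1b1. The summed level of the 85 genes went from 6318 and 6347 FPKM in FH to 1309 and 1691 in BM 1D, 1018 and 1547 in BM 3D and 372 and 184 in BM 3W. The sums did not overlap between FH and any BM group. At 1 day 36 genes fell and 3 rose, where 20.2% of all tested genes fell and 23.6% rose. At 3 days 34 fell and 5 rose, against 17.9% and 22.5% of all genes. At 3 weeks 44 fell and 4 rose, against 26.1% and 33% of all genes. The median log2 fold change of the 59 against FH was -3.24 at 1 day, -2.43 at 3 days and -4.54 at 3 weeks (-2.51 at 3 days and -4.12 at 3 weeks with groups at 0 counts set at 3 counts per library). Over all 14100 genes these medians were 0.17 at each time.

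**Figure D1:**
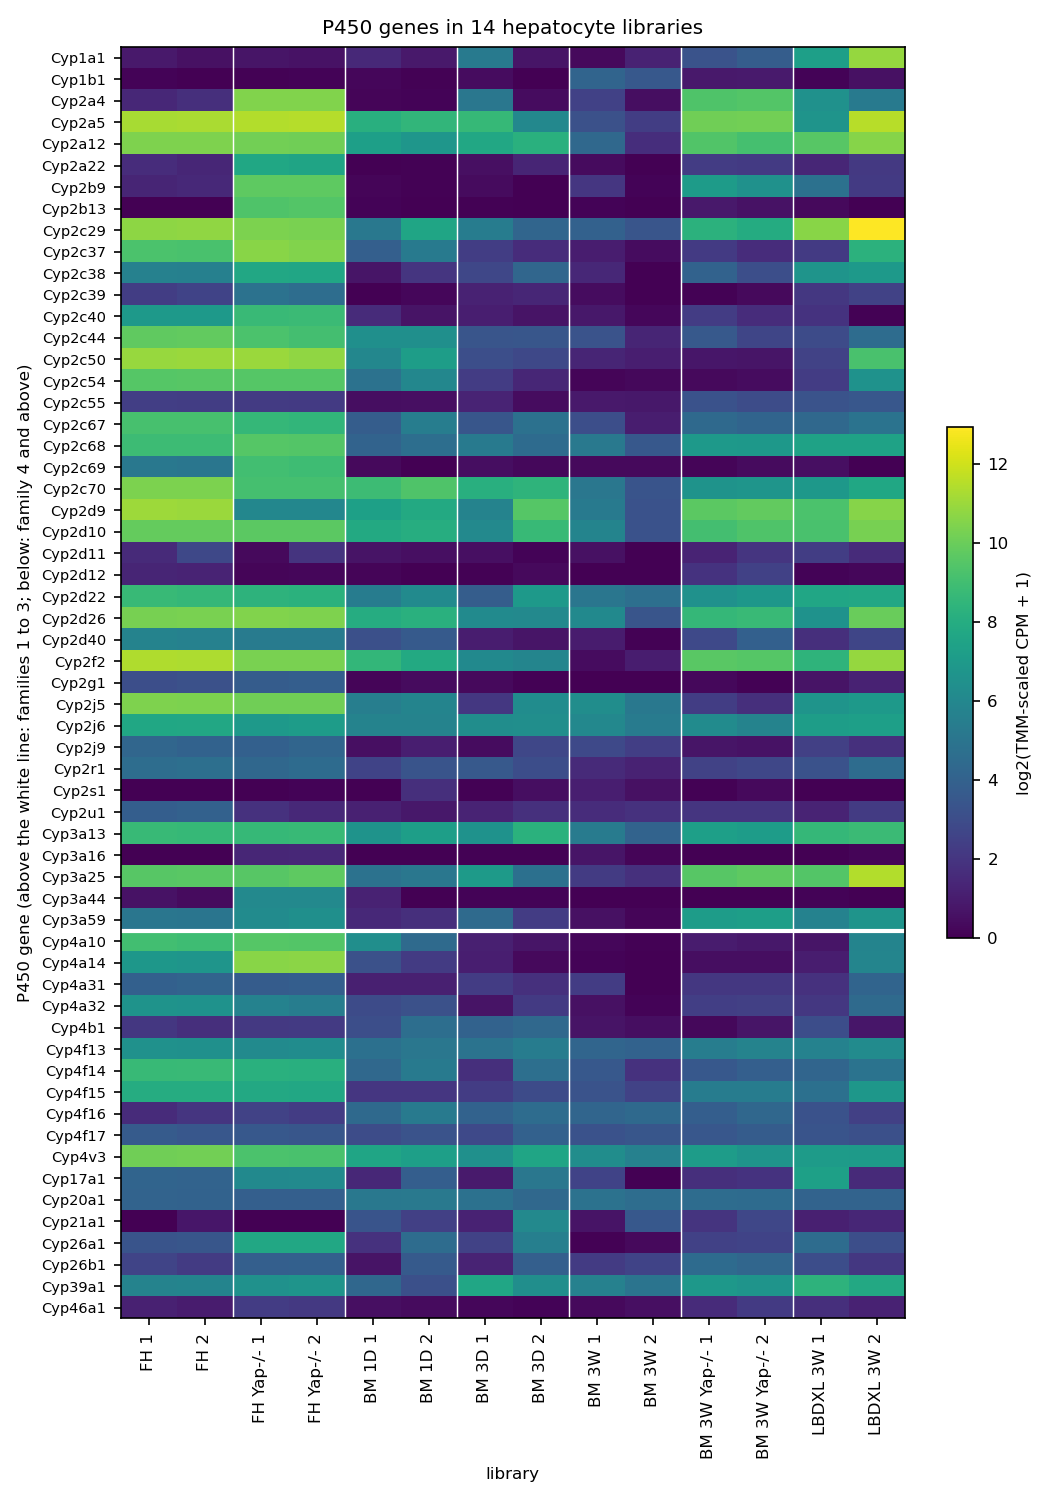
Each row is 1 of the 59 tested P450 genes and each column 1 of the 14 libraries, with colour giving log2(CPM + 1). The white line divides the 41 genes of families 1 to 3 from the 18 of family 4 and above. The columns of BM 3W are dark for most genes that are bright in FH, and many of these are bright again in BM 3W Yap-/- and LBDXL 3W.

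Cyp2f2, the most abundant P450 transcript per length in FH, nearly vanished in BM. It stood at 2656 and 2605 CPM in FH, 373 and 230.0 in BM 1D, 69.4 and 58.6 in BM 3D and 0.343 and 1.05 in BM 3W. Each group lay below the one before it with no overlap, and the fall from FH passed at 1 day (log2 fold change -3.12 ± 0.69, adjusted p = 0.00423) and at 3 weeks (log2 fold change -11.86 ± 1.02, adjusted p = 1.01e-05). Its fall between 3 days and 3 weeks passed as well (log2 fold change -6.50 ± 0.83, adjusted p = 0.000427). Cyp2a5 stood at 2455 and 2479.7 CPM in FH, 283 and 358 in BM 1D, 406 and 63.5 in BM 3D and 8.13 and 4.04 in BM 3W (log2 fold change -8.66 ± 1.53, adjusted p = 0.000678 against FH). Its 2 libraries at 3 days were far apart, and its call at 3 days (adjusted p = 0.0429) was kept in 9 of 24 alternative analyses. Cyp2a12, a steroid hydroxylase, stood at 1366 and 1354 CPM in FH and 19.9 and 2.25 in BM 3W (log2 fold change -6.94 ± 0.91).

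The Cyp2c genes, several of them arachidonic acid epoxygenases or CAR-responsive enzymes, fell as a group, and all 13 tested had fallen at 3 weeks. The 15 genes summed gave 8425 and 8647 CPM in FH, 725 and 1256 in BM 1D, 413 and 449 in BM 3D and 109 and 35.7 in BM 3W, and the sum fell at 3 weeks (log2 fold change -6.89 ± 0.88, adjusted p = 8.12e-05). Cyp2c50 (chromosome 19, 40089679 to 40113955) went from 1943 and 2045 CPM in FH to 61.6 and 144 in BM 1D, 7.62 and 5.91 in BM 3D and 1.51 and 1.14 in BM 3W (log2 fold change -10.55 ± 1.81, adjusted p = 0.000561). Its near relatives in sequence, Cyp2c54 (739 and 749.8 CPM in FH) and Cyp2c37 (619 and 597), ended at 0.137 and 0.21 and at 1.06 and 0.329 CPM. Cyp2c70, which makes muricholic acids from bile acids, fell later. It stood at 1316 and 1328 CPM in FH, 467 and 658 in BM 1D, 286 and 340.3 in BM 3D and 33.9 and 9.28 in BM 3W, and its fall did not pass at 1 day (adjusted p = 0.0631) but passed at 3 weeks (log2 fold change -5.94 ± 0.60, adjusted p = 2.28e-05). Cyp2c44, an epoxygenase listed in RefSeq as Cyp2c23, went from 884 and 906 CPM to 85.8 and 87.0 in BM 1D and 9.68 and 9.85 in BM 3D. It was among the 5 P450 genes called between 1 and 3 days (log2 fold change -3.14 ± 0.74, adjusted p = 0.0359). None of these 5 calls was kept in every alternative.

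Other members of families 2 and 3 fell as well, with all 7 tested Cyp2d genes and 4 of 5 tested Cyp3a genes lower at 3 weeks. The 8 Cyp2d genes summed to 4766 and 4706 CPM in FH and 199 and 52.3 in BM 3W (log2 fold change -5.24 ± 0.95, adjusted p = 0.000785). Within them Cyp2d9 had 2124 and 2048 CPM in FH and 39.4 and 8.54 in BM 3W, with 54.7 and 741 at 3 days, where its 2 libraries were far apart. Cyp3a25, a steroid hydroxylase of adult liver, went from 764 and 783 CPM to 3.81 and 2.49 (log2 fold change -7.94 ± 0.93, adjusted p = 5.21e-05), and Cyp3a13 from 413 and 410.4 to 40.5 and 16.3 (log2 fold change -3.86 ± 0.56). Cyp2j5, an epoxygenase, had 1379 and 1308 CPM in FH, 45.9 and 56.1 in BM 1D, 3.24 and 77.6 in BM 3D and 80.2 and 34.9 in BM 3W. Most of its fall came in the first day, and its 2 libraries at 3 days were far apart. These genes were lower in both BM 3W libraries than in both FH libraries. Cyp2d26 went from 1234 and 1271 CPM in FH to 68.9 and 9.46 in BM 3W, and Cyp2d22, the nearest mouse relative of the human drug enzyme of that subfamily, from 412 and 385 to 32.6 and 25.8. Cyp2j6 fell less, from 209 and 212 to 63.7 and 41.2 CPM (log2 fold change -2.004 ± 0.24). Cyp2r1, which 25-hydroxylates vitamin D, fell to 1.92 and 1.38 CPM from 23.5 and 25.4 (log2 fold change -3.89 ± 0.49). Cyp2g1 had 7.63 and 8.39 CPM in FH and 0 counts in both BM 3W libraries, at least 83.1-fold lower by the group means with BM 3W set at 3 counts per library.

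Among the fatty acid omega-hydroxylases of family 4, all 4 tested Cyp4a genes fell. Cyp4a10, a classical target of PPAR alpha, stood at 512 and 484 CPM in FH, 82.4 and 21.3 in BM 1D, 1.17 and 0.69 in BM 3D and 0.171 and 0.0599 in BM 3W (log2 fold change -12.03 ± 1.92, adjusted p = 0.000351). Cyp4a14 went from 113 and 107 CPM to 0.103 and 0.0299 (log2 fold change -10.61 ± 1.78). Ppara itself fell from 713 and 717 to 23.7 and 4.97 CPM (log2 fold change -5.64 ± 0.66, adjusted p = 5.07e-05). The Cyp4f genes, which hydroxylate leukotrienes and fatty acids, diverged. Cyp4f14 fell from 416 and 430.4 to 10.7 and 2.64 CPM and Cyp4f15 from 260.2 and 255 to 8.75 and 4.82. Cyp4f17 had 11.9 and 10.5 CPM in FH and 8.44 and 10.1 in BM 3W, and no comparison called it. Cyp4v3 fell from 1128 and 1155 to 80.7 and 50.7 CPM (log2 fold change -4.12 ± 0.41), and it then ranked behind Cyp2d10 alone in mean FPKM among the 85 genes.

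The steroid, retinoid and sterol enzymes described here were scarce in FH and BM 3W. Cyp17a1, the steroid 17-alpha-hydroxylase, had 16.7 and 16.3 CPM in FH and 5.01 and 0.0299 in BM 3W and did not pass (adjusted p = 0.239), with 68.8 and 71.2 in FH Yap-/-. Cyp46a1, the cholesterol 24-hydroxylase, went from 1.27 and 0.95 to 0.274 and 0.449 CPM (log2 fold change -1.60 ± 0.58, adjusted p = 0.0355) and stood at 2.04 and 3.62 in BM 3W Yap-/-, above both groups. Cyp26b1, a retinoic acid hydroxylase, had 5.33 and 3.80 CPM in FH and 3.74 and 5.15 in BM 3W, which did not pass (adjusted p = 0.983). Cyp26a1, which breaks down retinoic acid as well, had 9.15 and 10.1 CPM in FH and 4.94 and 47.4 in BM 3D and fell to 0.0686 and 0.24 in BM 3W (log2 fold change -5.87 ± 1.41, adjusted p = 0.00448 against FH).

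The 2 classes can be set side by side. In BM 3W against FH, 33 of 41 tested genes of families 1 to 3 fell and 2 rose, and 11 of 18 of family 4 and above fell and 2 rose. The median log2 fold change was -4.999 in families 1 to 3 (-4.61 with groups at 0 set at 3 counts) and -2.63 in family 4 and above. At 1 day the medians were -3.41 and -1.55, with 28 of 41 and 8 of 18 genes falling, and no gene of families 1 to 3 rose by edgeR (1 at an unadjusted p under 0.05). At 3 days they were -2.52 and -0.71, with 26 and 8 genes falling, and scaled by total counts alone the second of these medians turned to 0.20. The share of summed P450 FPKM held by families 1 to 3 dropped from 91.9 and 91.8% in FH to 71.8 and 50.9% in BM 3W, with no overlap. An exact permutation test of this share, 2 libraries against 2, cannot go below p = 0.333. The difference between the classes was not tested, and paralogs within a class share sequence and are not replicates.

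**Figure D2:**
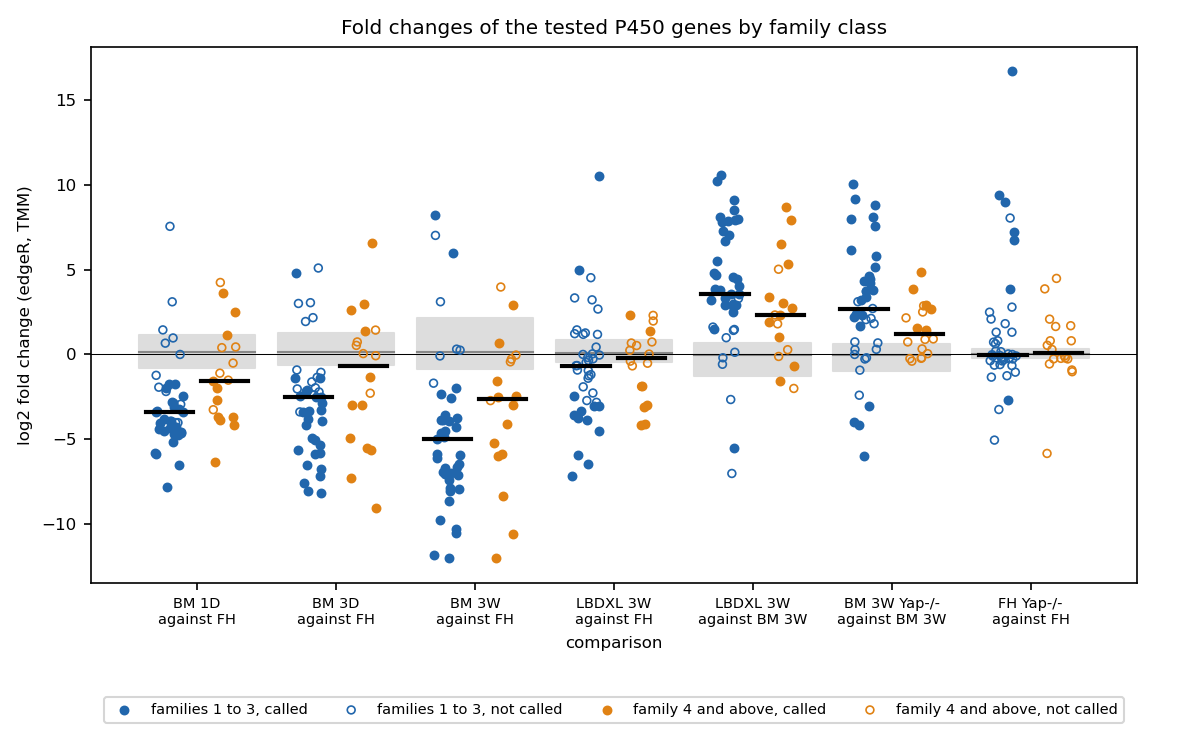
Log2 fold changes of the 59 tested P450 genes in 7 comparisons, families 1 to 3 in blue and family 4 and above in orange, filled where called. Black bars are class medians, the grey line the median and the grey band the interquartile range of all 14100 genes. In the comparisons of BM with FH the class medians lie below 0 and the blue bar is lower, and in both comparisons with BM 3W they lie above 0 and the blue bar is higher. The direction of the orange bar in BM 3D and in LBDXL 3W against FH turns by total count scaling.

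Few P450 genes were higher in culture than in fresh cells. Cyp1b1, which oxidises polycyclic aromatic compounds and oestrogens (chromosome 17, 79706940 to 79715061), had 0.0795 and 0 CPM in FH, 0.181 and 0.0521 in BM 1D, 0.324 and 0 in BM 3D and 16.7 and 11.0 in BM 3W. It rose at 3 weeks against 3 days (log2 fold change 6.29 ± 1.03, adjusted p = 0.0018) and against FH (log2 fold change 8.23 ± 1.27, adjusted p = 0.000289). The stellate, cholangiocyte and macrophage sums given above rose in the same 2 libraries, and their part in this rise was not tested. Cyp4f16 stood at 1.99 and 2.93 CPM in FH, 20.8 and 39.7 in BM 1D, 15.6 and 23.0 in BM 3D and 17.7 and 20.2 in BM 3W. It rose at each time, by log2 3.62 ± 0.45, 2.97 ± 0.44 and 2.94 ± 0.44, while its paralogs Cyp4f13, Cyp4f14 and Cyp4f15 fell at each time. Cyp20a1, a conserved P450 of unknown substrate, went from 16.1 and 16.0 CPM to 35.3 and 36.6 in BM 1D (log2 fold change 1.16 ± 0.21, adjusted p = 0.00116) and 28.2 and 23.5 in BM 3W (log2 fold change 0.69 ± 0.20), the latter lost without either FH library or BM 3W library 1. The fourth rise at 3 weeks, Cyp3a16, rested on 0.652 and 0.15 CPM against 0 counts in FH and was lost in 11 of 21 alternatives, among them without either FH library or BM 3W library 1.

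Others were called higher at 1 or 3 days. Cyp4b1, which activates furans and fatty acids, stood at 3.34 and 2.30 CPM in FH, 7.54 and 24.9 in BM 1D, 15.5 and 19.6 in BM 3D and 0.583 and 0.389 in BM 3W. It rose at 1 day (adjusted p = 0.0372) and 3 days (adjusted p = 0.0334) and fell between 3 days and 3 weeks (log2 fold change -5.16 ± 0.99, adjusted p = 0.00418). The first rise was lost without either FH library, either FH Yap-/- library or BM 1D library 2, and the second without any 1 of the FH and BM 3D libraries. Cyp39a1, an oxysterol 7-alpha-hydroxylase, moved up and down: 53.6 and 56.2 CPM in FH, 19.3 and 8.02 in BM 1D, 203 and 82.4 in BM 3D and 50.3 and 30.9 in BM 3W. It fell at 1 day (log2 fold change -2.01 ± 0.47), rose from 1 to 3 days (log2 fold change 3.38 ± 0.50, adjusted p = 0.00634) and fell again by 3 weeks (log2 fold change -1.81 ± 0.47). With BM 1D and BM 3D fitted alone, edgeR called 0 P450 genes between them. Cyp21a1, the steroid 21-hydroxylase, was called at 3 days on 1.38 and 67.7 CPM against 0 and 0.712 and not without either FH library or BM 3D library 2.

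**Figure D3:**
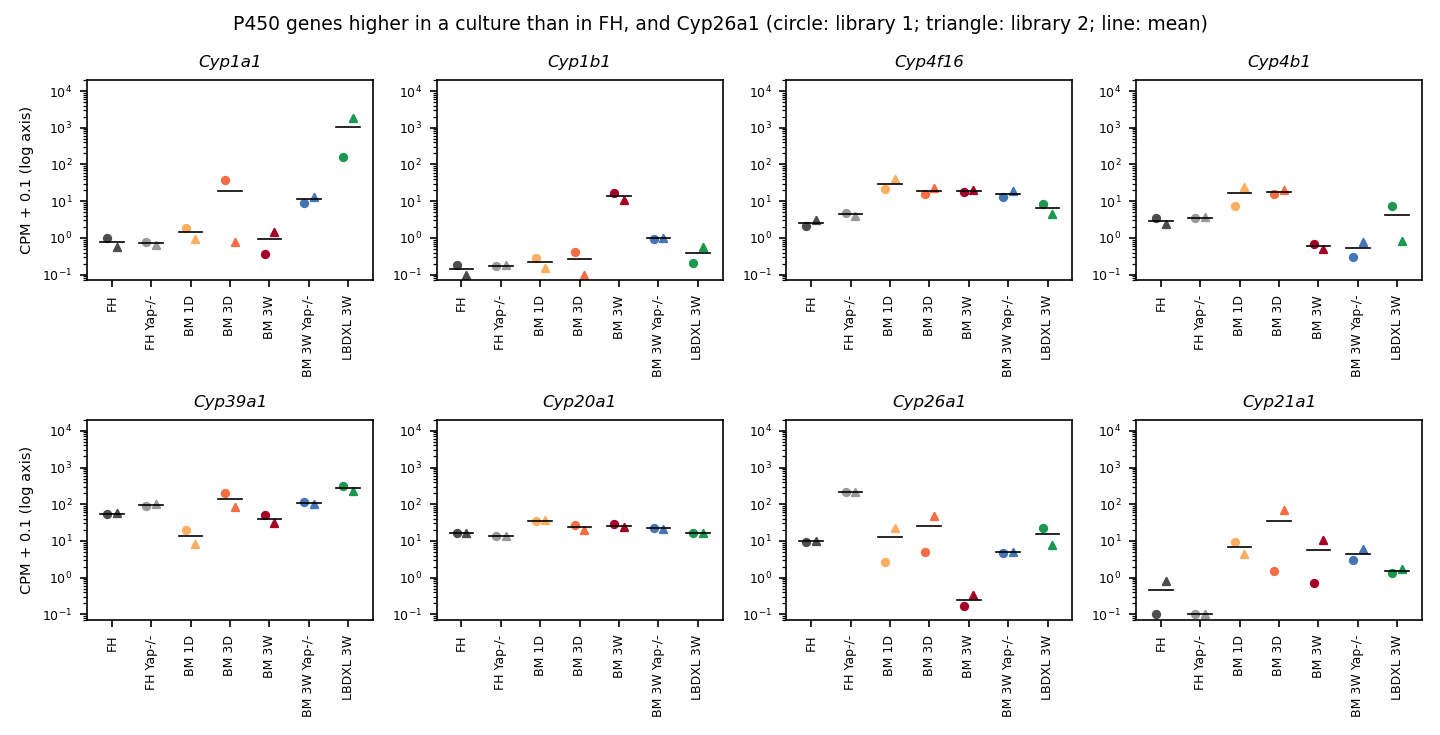
CPM plus 0.1 on a log axis in the 14 libraries for 7 P450 genes that were called higher in a culture than in FH, and for Cyp26a1. Circles are library 1, triangles library 2 and lines group means. Cyp1b1 peaks in BM 3W, at 16.7 and 11.0 CPM, and Cyp1a1 in LBDXL 3W, at 159 and 1893 CPM.

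Many P450 genes stood higher in 3-week BM culture of cells labelled Yap-/-, among them Cyp2f2, Cyp2a5, Cyp2d9 and Cyp3a25, while most of the Cyp4a and part of the Cyp2c genes did not. Of the 59, 28 were higher and 4 lower in BM 3W Yap-/- than in BM 3W, where 15% of all tested genes were higher and 16.6% lower. By class, 22 of 41 genes of families 1 to 3 were higher and 4 lower, with a median log2 fold change of 2.71 (2.38 with groups at 0 set at 3 counts), and 6 of 18 of family 4 and above were higher, with a median of 1.18. The same test on these 2 groups alone called 32 higher and 3 lower of 52 tested, where 1902 of all 13598 genes were higher and 2836 lower. Without BM 3W library 2, whose P450 sum was the lower of the pair, 18 were called higher and 2 lower. The sum over the 85 genes was 3098 and 3458 FPKM against 372 and 184, and families 1 to 3 held 95.9 and 96.4% of it.

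The genes that were higher included abundant enzymes of Cyp2a, Cyp2d, Cyp2f and Cyp3a. Cyp2f2 stood at 789 and 723 CPM in BM 3W Yap-/- against 0.343 and 1.05 in BM 3W (log2 fold change 10.06 ± 0.96, adjusted p = 0.000161). Cyp3a25 stood at 768 and 845 against 3.81 and 2.49 CPM (log2 fold change 8.001 ± 0.93, adjusted p = 0.000349), about the level of FH, where it had 764 and 783. Cyp3a59, a paralog, stood at 140.2 and 150.4 against 0.514 and 0.12 CPM and above FH, at 32.7 and 31.3. The closest relative in sequence of each is the other, with 26.8% of the 50-base windows of Cyp3a25 shared, so that reads may have been split between them. Cyp2a5 had 1127 and 1173 against 8.13 and 4.04 CPM (log2 fold change 7.56 ± 1.46) and Cyp2a12 674 and 554 against 19.9 and 2.25 (log2 fold change 5.79 ± 0.86). Cyp2d9 had 822 and 909 against 39.4 and 8.54 CPM and Cyp2d10 539.6 and 671 against 56.5 and 8.42, log2 fold changes of 5.18 ± 1.11 and 4.22 ± 0.94. All of these lay above both BM 3W libraries.

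The Cyp2c genes divided. Cyp2c29, at 313 and 243 against 15.4 and 9.79 CPM (log2 fold change 4.46 ± 0.92, adjusted p = 0.00505), Cyp2c68, at 120.1 and 118 against 36.4 and 10.7, and Cyp2c70, at 98.9 and 104 against 33.9 and 9.28, were higher in BM 3W Yap-/-. Cyp2c50 stayed at 0.729 and 0.654 CPM against 1.51 and 1.14 (log2 fold change -0.93 ± 1.44, adjusted p = 0.648), where FH had 1943 and 2045. Cyp2c54 had 0.243 and 0.352 CPM and Cyp2c69 0.146 and 0.302, and neither passed against BM 3W. Summed over Cyp2c the level was 598 and 508 CPM against 109 and 35.7 in BM 3W (log2 fold change 2.94 ± 0.73, adjusted p = 0.0123) and 8425 and 8647 in FH. The Cyp4a sum, at 8.94 and 8.75 CPM against 4.66 and 0.21, did not pass (adjusted p = 0.262). It leaves out Cyp4a12a and Cyp4a12b, whose symbols did not match. Cyp4a12a had 326 and 330 CPM in FH, 0.0343 and 0.12 in BM 3W and 2.58 and 3.42 in BM 3W Yap-/-.

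The 4 genes that were lower in BM 3W Yap-/- were Cyp2j5, Cyp2j9, Cyp1b1 and Cyp3a16. Cyp3a16 had 0 counts in both BM 3W Yap-/- libraries against 19 and 5 in BM 3W. Its FPKM, at 0.281 and 1.12 against 0.352 and 0.0704, overlapped and did not show this fall. Cyp2j5 (chromosome 4, 96627432 to 96664171) stood at 4.13 and 2.31 CPM against 80.2 and 34.9 in BM 3W (log2 fold change -4.15 ± 1.06, adjusted p = 0.0138). Cyp2j9 stood at 0.68 and 0.553 against 6.14 and 4.31 CPM (log2 fold change -3.07 ± 0.95), where FH had 18.3 and 15.6, so that both lay further from FH in BM 3W Yap-/- than in BM 3W. Cyp1b1 stood at 0.826 and 0.905 against 16.7 and 11.0 CPM (log2 fold change -3.99 ± 0.89, adjusted p = 0.00737), and the stellate sum was lower in the same libraries (339 and 295 against 7737 and 10053 CPM), a link that was not tested. With either BM 3W Yap-/- library left out, the calls of all 4 were lost. Cyp26b1, a retinoic acid hydroxylase, had 21.8 and 18.0 CPM against 3.74 and 5.15 and did not pass (adjusted p = 0.151), whereas Cyp26a1 rose to 4.71 and 4.98 CPM (adjusted p = 0.0238), a call lost without any 1 of the 4 libraries compared.

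**Figure D4:**
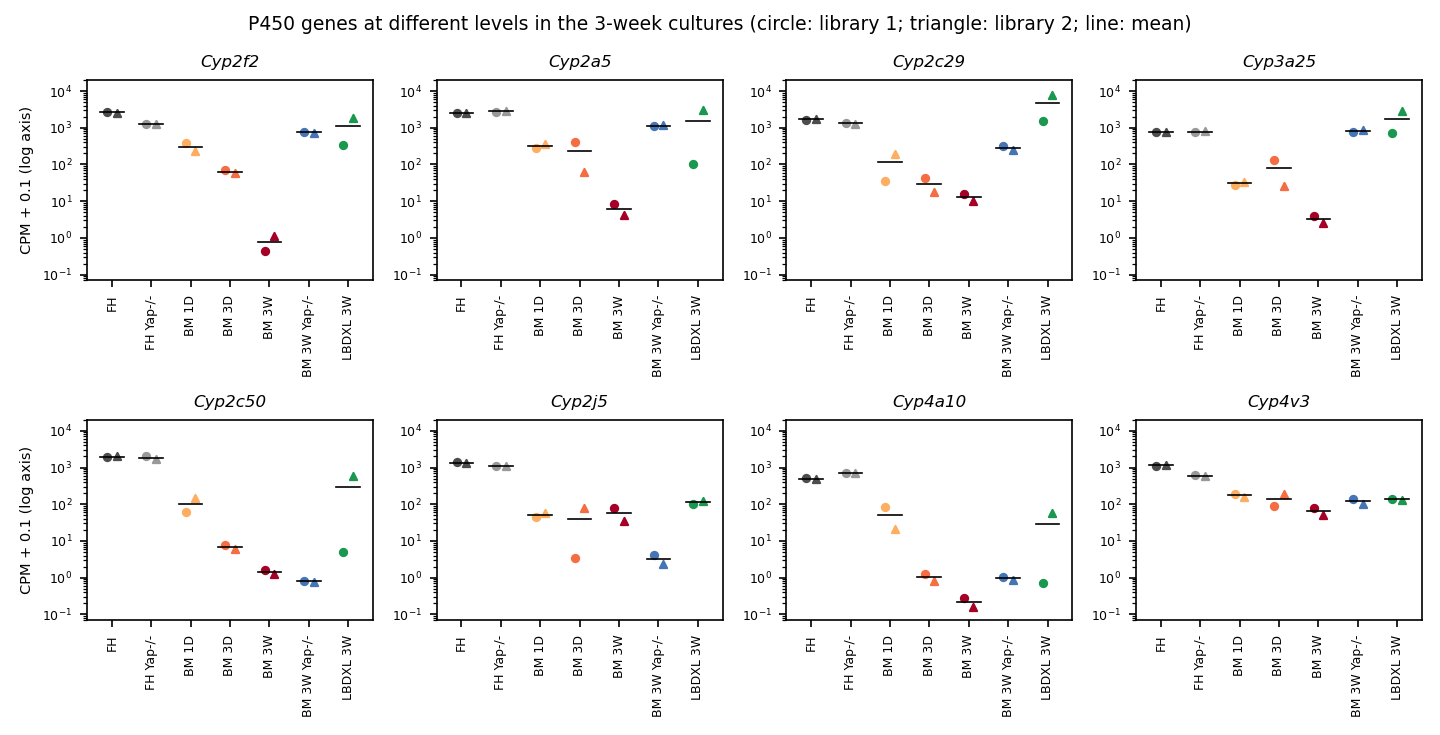
CPM plus 0.1 on a log axis in the 14 libraries for 8 P450 genes, with circles for library 1, triangles for library 2 and lines for group means. Cyp2f2, Cyp2a5, Cyp2c29 and Cyp3a25 are low in BM 3W and higher in BM 3W Yap-/- and LBDXL 3W. Cyp2c50, at 0.729 and 0.654 CPM, and Cyp4a10, at 0.972 and 0.754 CPM, stay low in BM 3W Yap-/-, and the 2 libraries of LBDXL 3W lie far apart for both.

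LBDXL culture held more P450 transcript at 3 weeks than BM, with a wide gap between its 2 libraries. Cyp2f2, Cyp3a25, Cyp2c29 and Cyp4a14 were among the genes higher than in BM 3W, and several Cyp2c genes, Cyp2j5 and Cyp4v3 stayed below FH. Cyp4a14, at 1.06 and 58.3 CPM in LBDXL 3W, also lay below both FH libraries, at 113 and 107. The 85 genes summed to 2523 and 10375 FPKM against 372 and 184 in BM 3W and 6318 and 6347 in FH. Against BM 3W, 40 of 59 genes were higher and 3 lower, where 21.1% of all genes were higher and 23.7% lower. Without LBDXL 3W library 1, which lacks the Y-linked transcripts, 36 were higher and 2 lower, and without library 2 the counts were 36 and 1. By class 30 of 41 genes of families 1 to 3 and 10 of 18 of family 4 and above were higher, with medians of 3.60 and 2.33 (3.35 in families 1 to 3 with groups at 0 set at 3 counts). Against FH, 16 were lower and 4 higher, where 9.6% of all genes were lower and 11.7% higher. This count of 20 became 13 without LBDXL 3W library 1, 11 without FH library 1 and 9 without FH library 2. The class medians against FH were -0.66 in families 1 to 3 and -0.19 in family 4 and above, and the second turned to 0.29 by total count scaling. Without LBDXL 3W library 1 these medians were -0.42 and -0.47, and without library 2 they were -1.39 and -0.15. Their order thus depended on which library was kept.

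Of the 41 P450 genes that averaged 5 CPM or more in LBDXL 3W, 24 differed more than 2-fold between its libraries and 9 more than 10-fold, and 19 of the 24 were higher in library 2. In FH 0 of 41 such genes differed more than 2-fold. Cyp2c29 had 1564 and 7798 CPM in LBDXL 3W and lay above FH in library 2 and below it in library 1. Cyp2a5 had 101 and 3021 CPM and Cyp2c50 4.86 and 599.7, the widest gap of the 41. Cyp3a25, at 704 and 2816 CPM, was near the level of FH or above it. All 4 were called higher than BM 3W, by log2 8.54 ± 1.11, 8.003 ± 1.49, 7.83 ± 1.63 and 9.13 ± 0.98. Library 1 was higher for Cyp17a1, at 161 and 1.87 CPM, and for Cyp2a4, at 90.8 and 38.0. The sinusoidal endothelial sum and the Y-linked sum also differ between these 2 libraries, at 99.7 and 2.90 and at 0 and 214 CPM, and their part in the gap was not tested.

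Some genes were low in both LBDXL libraries. Cyp2c44 stood at 6.66 and 22.5 CPM (log2 fold change -5.94 ± 0.84, adjusted p = 0.000877 against FH), Cyp2c67 at 19.8 and 29.6 and Cyp2c69 at 0.423 and 0. Cyp4v3 stood at 137 and 133 CPM (log2 fold change -3.08 ± 0.39, adjusted p = 0.000513) and Cyp2c70 at 118 and 208 (log2 fold change -3.02 ± 0.52, adjusted p = 0.00271). These 5, with Cyp2c40 and Cyp2d40, were the 7 of 20 calls against FH kept in all alternatives that were run. Cyp39a1 was higher than FH at 323 and 223 CPM (log2 fold change 2.31 ± 0.47, adjusted p = 0.0065), and its call was lost without either FH library.

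Cyp1a1 showed the largest rise of LBDXL against FH among the 59 genes, and against BM 3W only Cyp2f2 rose further. It encodes the enzyme most readily induced through the aryl hydrocarbon receptor (chromosome 9, 57687928 to 57703824). It stood at 159 and 1893 CPM in LBDXL 3W, 0.875 and 0.475 in FH, 0.274 and 1.38 in BM 3W and 8.99 and 13.2 in BM 3W Yap-/-. The rise passed against FH (log2 fold change 10.56 ± 1.98, adjusted p = 0.00407) and BM 3W (log2 fold change 10.25 ± 1.90, adjusted p = 0.00166), with the first lost without FH library 2. In BM 3D it had 37.6 and 0.69 CPM, so that library 2 overlapped FH, and the call there (adjusted p = 0.0403) was lost without library 1 and in 11 other alternatives. Tiparp, another gene induced by that receptor, had 40.2 and 19.8 CPM in LBDXL 3W and 14.6 and 15.4 in FH and did not pass (adjusted p = 0.087). Ahr did not pass in this comparison (log2 fold change -0.45 ± 0.26).

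The promoters of Cyp1a1 and Cyp1b1 are shown because the core of the response element of that receptor, GCGTG on either strand, occurs in each, while the genes were high in different cultures. The 250 bases before the RefSeq start are written 5′ to 3′ in the direction of the gene, with the match in capitals, for chr9:57697363-57697612 (plus strand) and chr17:79715062-79715311 (minus strand) of GRCm38.p6. RefSeq's span for Cyp1a1, given above, begins further upstream than the start used for this window, so the window lies inside the span, and it overlaps no GENCODE exon of that strand.
Cyp1a1: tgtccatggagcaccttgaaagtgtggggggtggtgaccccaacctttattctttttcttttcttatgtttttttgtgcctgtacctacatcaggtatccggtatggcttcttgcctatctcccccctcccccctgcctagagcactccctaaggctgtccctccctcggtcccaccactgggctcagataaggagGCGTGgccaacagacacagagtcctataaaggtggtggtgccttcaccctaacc
Cyp1b1: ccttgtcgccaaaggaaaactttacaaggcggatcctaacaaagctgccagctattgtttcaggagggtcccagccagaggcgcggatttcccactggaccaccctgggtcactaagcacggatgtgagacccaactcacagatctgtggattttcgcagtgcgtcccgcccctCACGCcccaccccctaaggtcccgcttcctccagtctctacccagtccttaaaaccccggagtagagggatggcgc
GCGTG was found in 14 of the 67 P450 promoters in the RefSeq table and in 28.2% of all 27025 promoters of this length. The other tested genes with a match were Cyp20a1, Cyp2j9, Cyp4v3, Cyp46a1, Cyp4f14, Cyp4f16 and Cyp2c68, of which Cyp20a1 and Cyp4f16 rose and Cyp2c68, Cyp46a1, Cyp4f14 and Cyp4v3 fell in BM 3W. TATAAA occurred in 22 of 67 against 13.0% of all, and CAAAGTCCA, a binding sequence of HNF4 alpha, in 7 of 67 against 0.381% of all. Of these 7, Cyp2c40, Cyp2c67, Cyp2c68 and Cyp2c69 are near copies of each other.

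In the fit over all 14 libraries, fresh cells labelled Yap-/- differed from FH in 7 called P450 genes, led by Cyp2b13, Cyp2b9 and Cyp2a4. A test on the fresh libraries alone, given below, called many more. In all, 6 P450 genes were higher and 1 lower than in FH, where 0.489% of all tested genes were higher and 0.454% lower. All 7 belong to families 1 to 3, and in family 4 and above edgeR had 3 higher and 1 lower at an unadjusted p under 0.05. The spread was estimated over all 14 libraries. The same test on the 4 fresh libraries alone called 44 of the 55 P450 genes it tested, 24 higher and 20 lower. These calls were not confined to families 1 to 3. In those families 16 were higher and 15 lower of 38 tested, and in family 4 and above 8 were higher and 5 lower of 17. Among all 11356 genes of that test, 2050 were higher and 2201 lower. Cyp2b13 stood at 662 and 697 CPM in FH Yap-/- and had 0 counts in FH, at least 2856-fold higher. Cyp2b9 stood at 848 and 855 against 1.51 and 1.82 CPM (log2 fold change 8.99 ± 1.42, adjusted p = 0.0175) and Cyp2a4 at 1423 and 1440.1 against 1.75 and 2.37 (log2 fold change 9.43 ± 1.81, adjusted p = 0.0361). Cyp2a22 stood at 206 and 187 against 2.07 and 1.58 CPM, Cyp2c69 at 516 and 488 against 34.6 and 32.9 and Cyp3a44 at 66.0 and 67.2 against 0.557 and 0.317. Cyp2u1, a fatty acid hydroxylase, was lower at 2.55 and 1.84 against 13.7 and 15.0 CPM (log2 fold change -2.70 ± 0.51). Leaving out either FH library left 1 call and leaving out either FH Yap-/- library left 2, and Cyp2b13 passed in all alternatives. The sum over the 85 genes was 7195 and 7106 FPKM against 6318 and 6347, with families 1 to 3 holding 88.0 and 87.9% of it.

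Several of these genes are known to be sex-biased in mouse liver. Cyp2a4, Cyp2b9, Cyp2b13, Cyp2c69, Cyp3a44, Cyp2c40 and Cyp4a14 are known as higher in females and Cyp2d9 as higher in males, a list set after the values were seen. Cyp2d9 had 62.5 and 62.8 CPM in FH Yap-/- against 2124 and 2048 in FH (log2 fold change -5.06 ± 1.11, adjusted p = 0.0701). Cyp4a14 had 1602 and 1621 against 113 and 107 CPM (adjusted p = 0.247) and Cyp2c40 439 and 448 against 125 and 127 (adjusted p = 0.493). None of these 3 passed, though the libraries of the 2 groups did not overlap. The Y-linked sum given above separates the same 4 libraries, so that these values cannot be assigned to the Yap-/- genotype. Cyp26a1, not on that list, had 216 and 217 against 9.15 and 10.1 CPM and did not pass (adjusted p = 0.116).

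**Figure D5:**
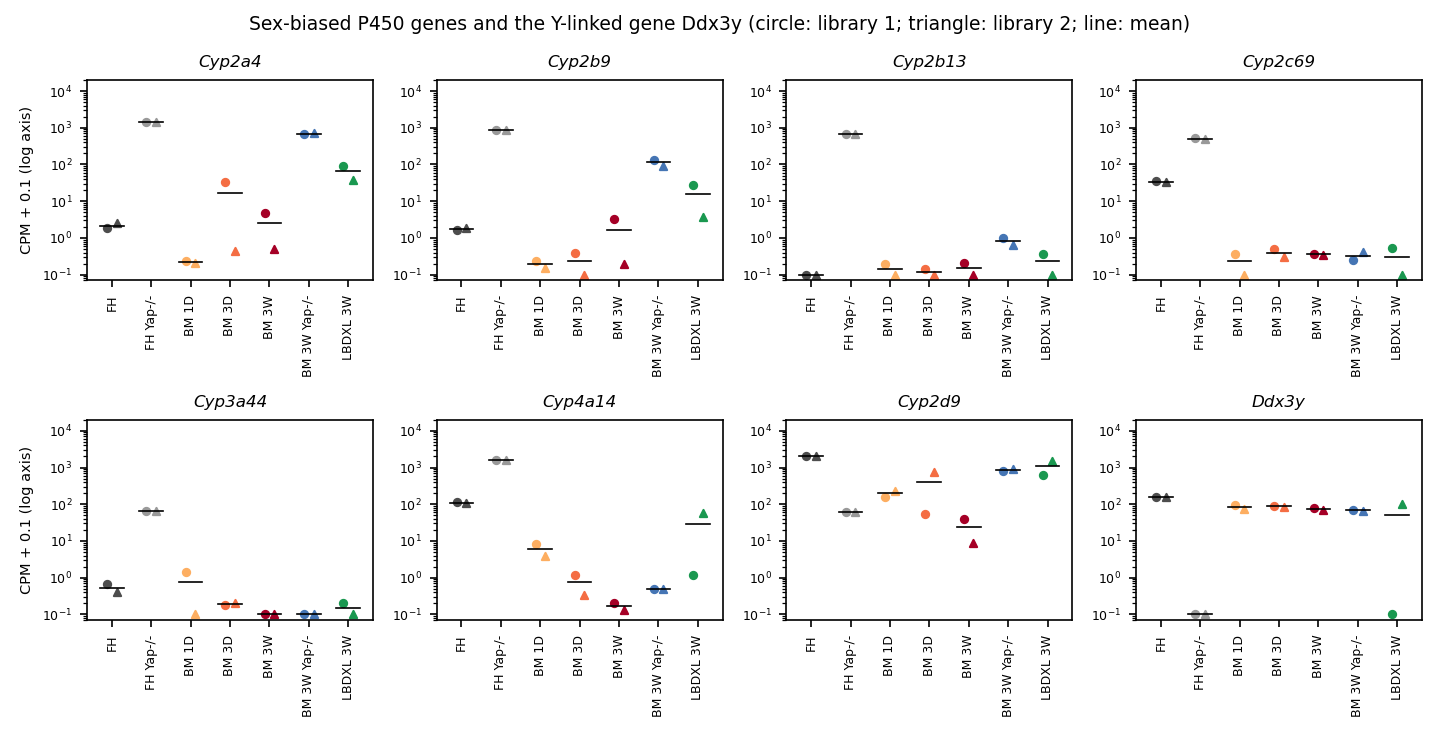
CPM plus 0.1 on a log axis in the 14 libraries for 7 P450 genes known as sex-biased and for Ddx3y, a Y-linked gene. Circles are library 1, triangles library 2 and lines group means. Ddx3y is at the bottom of the axis in both FH Yap-/- libraries and in LBDXL 3W library 1. In both FH Yap-/- libraries the 6 genes known as higher in females lie above FH and Cyp2d9 lies below it.

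In 3-week BM culture, where the Y-linked genes were present in both groups, part of this set differed as well. Cyp2a4 had 666 and 706 CPM in BM 3W Yap-/- against 4.56 and 0.389 in BM 3W (log2 fold change 8.12 ± 1.70, adjusted p = 0.0054), far above FH. Cyp2b9 had 135 and 92.3 against 3.09 and 0.0898 CPM (log2 fold change 6.18 ± 1.25, adjusted p = 0.00461), also above FH. Cyp2a22 and, at 0.875 and 0.553 CPM, Cyp2b13 were higher than in BM 3W too. Cyp2c69 had 0.146 and 0.302 CPM and Cyp4a14 0.389 and 0.402, and neither passed against BM 3W. They rest on few counts, 3 and 6 against 8 and 8 for Cyp2c69 and 8 and 8 against 3 and 1 for Cyp4a14. Cyp3a44 had 0 counts in all libraries of both groups (though 0.352 and 0.145 FPKM in BM 3W Yap-/-), so its test could not pass. Cyp2d9, the male-biased gene, was higher rather than lower in BM 3W Yap-/-. The interaction, which tests whether the difference of Yap-/- from its control was the same in fresh cells and in 3-week BM culture, called 18 genes higher and 3 lower in culture, against 8.04% and 8.84% of all genes. The 3 were Cyp2b13, Cyp2c69 and Cyp3a16. This count of 21 became 13 without either FH library, BM 3W library 2 or BM 3W Yap-/- library 2, and 10 without either FH Yap-/- library. It rests on the FH Yap-/- libraries, which lack the Y-linked transcripts.

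Sequence limits what can be said of near copies. Of the 85 genes, 26 share no 50-base window with another annotated transcript, 36 share more than 10% of their windows and 3 more than 50%, namely Cyp2c40 (72.1%), Cyp2c69 (54.8%) and Cyp2c67 (52.8%). Besides, 13 of the 85, among them Cyp2a4, Cyp2a22, Cyp2c55, Cyp2d9, Cyp2f2 and Cyp2u1, are overlapped by a GENCODE gene on the opposite strand, and the sources used here do not give whether the counting used the strand. The coding sequences of Cyp2a4 and Cyp2a5 (chromosome 7, 26307192 to 26315088 and 26835339 to 26843264) are 98.4% identical, with 23 differing bases in 1482. Bases 601 to 690 of both coding sequences, all exonic, are shown from GENCODE transcripts on GRCm38, with the differing bases in capitals, since reads are assigned to one or the other by such bases.
Cyp2a4: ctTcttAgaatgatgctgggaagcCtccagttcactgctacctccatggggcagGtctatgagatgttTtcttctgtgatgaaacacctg
Cyp2a5: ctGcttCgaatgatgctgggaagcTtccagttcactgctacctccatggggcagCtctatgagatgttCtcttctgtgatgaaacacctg
The ratio of the 2 genes differed widely between groups. In FH, Cyp2a4 had 0.0713 and 0.0957% of the counts of Cyp2a5, in FH Yap-/- 51.4 and 49.7%, in LBDXL 3W 89.9 and 1.26%, and in BM 3W Yap-/- 59.1 and 60.2%. A sum over the Cyp2a subfamily does not change where a read is counted for 1 member in place of another. Reads that fit several members and were left uncounted would still be missing from it. The level so summed was 3825 and 3838 CPM in FH, 5558 and 5648 in FH Yap-/-, 946 and 4580.4 in LBDXL 3W, 32.9 and 6.68 in BM 3W and 2470.3 and 2436 in BM 3W Yap-/-. This sum was higher in BM 3W Yap-/- than in BM 3W (log2 fold change 6.95 ± 0.97, adjusted p = 0.000798).

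Cyp2b9 and Cyp2b13 are 92.7% identical over their coding sequence and 99.2% over the 250 bases before the RefSeq start, with 2 differing bases. Both were high in FH Yap-/-, at 848 and 855 and at 662 and 697 CPM, but in BM 3W Yap-/- Cyp2b9 had 135 and 92.3 CPM and Cyp2b13 0.875 and 0.553. The 143 bases of that window that lie before both genes are shown with the differing bases in capitals, from the RefSeq promoters at chr7:26173159-26173301 and chr7:26061245-26061387 of GRCm38.p6, plus strand.
Cyp2b9: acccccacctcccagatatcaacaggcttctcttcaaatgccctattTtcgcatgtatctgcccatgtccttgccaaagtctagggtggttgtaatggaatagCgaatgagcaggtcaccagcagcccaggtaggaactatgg
Cyp2b13: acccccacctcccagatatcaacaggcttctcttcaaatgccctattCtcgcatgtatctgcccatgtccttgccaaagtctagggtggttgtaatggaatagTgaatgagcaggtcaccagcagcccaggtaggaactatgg
The pair shows a near-identical upstream sequence beside levels that were alike in 1 group and far apart in another, and no test of the difference between the 2 genes was made.

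With counts summed over each subfamily, 24 subfamilies could be tested. In BM 3W against FH 15 fell and 2 rose, in BM 3W Yap-/- against BM 3W 12 were higher and 1 lower, and in LBDXL 3W 17 were higher and 2 lower than in BM 3W. Among all 14065 features of the fit with these sums, 26% fell and 33% rose in the first comparison, 15% were higher and 16.6% lower in the second, and 21.1% were higher and 23.8% lower in the third. Against FH, 5 subfamilies were lower and 2 higher in LBDXL 3W, where 9.57% of all features were lower and 11.7% higher. The 7 were Cyp2g, Cyp2j, Cyp2u, Cyp4f and Cyp4v, which were lower, and Cyp1a (here Cyp1a1 alone) and Cyp39a, which were higher. This count was 4 without FH library 2 and 12 without LBDXL 3W library 2, and the 13 subfamilies of BM 3W Yap-/- became 8 without BM 3W library 1 or BM 3W Yap-/- library 1 and 7 without library 2 of either group. The Cyp2c, Cyp2a, Cyp2d and Cyp3a sums in LBDXL 3W did not pass against FH, at log2 fold changes of -0.58 ± 0.68, -0.47 ± 0.75, -0.78 ± 0.80 and 0.89 ± 0.51. Of the genes left out, Cyp1a2 had 1580 and 1539 CPM in FH and 311 and 4367 in LBDXL 3W, which overlap. Cyp3a11 had 949 and 982 CPM in FH and 8728 and 21955 in LBDXL 3W.

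Genes that serve the P450 enzymes fell in BM as well. All 7 genes of electron transfer fell in BM 3W against FH, all 7 were higher in LBDXL 3W than in BM 3W and 6 of 7 in BM 3W Yap-/-. Of all tested genes 26.1% fell and 33% rose in the first of these comparisons, 21.1% were higher and 23.7% lower in the second, and 15% were higher and 16.6% lower in the third. Por stood at 1578 and 1538 CPM in FH, 744 and 662 in LBDXL 3W, 72.9 and 76.1 in BM 3W and 650.2 and 588 with the Yap-/- label (log2 fold change 3.05 ± 0.28, adjusted p = 0.000122 between the 2 BM groups). Of 12 genes of haem synthesis and breakdown, 8 fell and 1 rose in BM 3W against FH. Alas1, which sets the rate of haem synthesis, fell from 1809.8 and 1797 to 50.9 and 71.5 CPM and stood at 376 and 357 in BM 3W Yap-/-. Of 17 tested receptors and factors that control P450 genes, 9 fell and 4 rose in BM 3W against FH, 7 were higher in BM 3W Yap-/- than in BM 3W, and 9 were higher and 2 lower in LBDXL 3W than in BM 3W. The 4 of 17 that rose are a smaller share than the 33% of all genes. Nr1i3, encoding CAR, stood at 276 and 249 CPM in FH, 28.8 and 107 in LBDXL 3W, 2.50 and 0.419 in BM 3W and 6.22 and 8.95 with the Yap-/- label. Nr1i3 was lower in library 1 of LBDXL 3W than in library 2, as were 19 of the 24 P450 genes more than 2-fold apart there. A link between them was not tested. Hnf4a, encoding a main factor of the hepatocyte state, had 1065 and 1057 CPM in FH, 919 and 993 in LBDXL 3W, 201 and 135 in BM 3W and 742 and 589.5 with the Yap-/- label.

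Between 1 and 3 days in BM, 2 P450 genes rose and 3 fell, against 3.67% and 1.6% of all genes. They were Cyp39a1 and Cyp2c39, which rose, and Cyp2c44, Cyp2d40 and Cyp4a10, which fell. Leaving out single libraries moved this count between 1 and 13. A test on those 2 groups alone by edgeR called 0 P450 genes and 0 of all 12512 genes. At an unadjusted p under 0.05 it had 7 P450 genes higher and 10 lower. DESeq2 on all libraries called 12 P450 genes, where 1110 of 17552 genes were higher and 602 lower. Between 3 days and 3 weeks 20 fell and 1 rose, against 10.9% and 13.5% of all genes. Besides Cyp2f2, Cyp26a1 and Cyp4b1 the falls included Cyp3a25 (log2 fold change -4.65 ± 0.80), Cyp2a12 (log2 fold change -4.51 ± 0.81), Cyp3a13 (log2 fold change -2.80 ± 0.54) and Cyp2r1 (log2 fold change -2.47 ± 0.47). Without BM 3W library 2, 9 fell and 2 rose.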

How the data were processed

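The 14 libraries were poly(A) RNA sequenced with a stranded kit as paired ends, per the labels' protocols. The deposited tables held read counts and FPKM values of 21878 genes, which the authors made with Trimmomatic, HISAT2, HTSeq, Cufflinks and DESeq on GRCm38.p6 per the submitters' processing notes; versions, annotation and strand setting are not given in the sources used here. FPKM served for levels across genes and in limma alternatives. Counts were fitted with edgeR 4.0.16 in R 4.3.3: genes kept by filterByExpr, TMM scaling, 1 mean per group over all 14 libraries, quasi-likelihood tests, and Benjamini-Hochberg adjustment over 14100 genes. The standard error is the fold change over the root of F. The fit was tested on simulated data with the same spread in all genes and groups. That test thus says nothing of groups as unequal in spread as these. DESeq2 1.42.0, limma 3.58.1, other scalings and filters, the 2 groups alone, and each library left out were tried. Sequences were read from RefSeq and GENCODE tables in Python 3.11.15. Groups at 0 counts are bounded at 3 counts per library, and with 2 libraries a group this covers counting error only.

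The 85 members and all lists were chosen with earlier results of these data known. Genes were named if they were on a fixed panel, had a mean of at least 50 CPM in a group, or were among the 5 largest rises or falls called in a comparison with at least 10 CPM and no overlap of libraries. Members matched RefSeq by gene identifier, 85 of 85.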

Additional observations from a re-analysis of the deposited data

Results flagged for a closer look

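The 20 results here differ between 2 settings: the difference of Yap-/- from its control was tested in 3-week BM culture against the same difference in fresh cells, by the interaction term of edgeR's quasi-likelihood fit with adjustment over all 14100 genes. Each value is a log2 difference of differences, positive where Yap-/- stood higher relative to its control in culture than in fresh cells. Among the Cyp2a, Cyp2f and Cyp3a genes and Cyp2d9, Cyp2f2 had 11.10, Cyp2d9 10.23, Cyp3a25 7.97, Cyp3a59 7.54, Cyp2a5 7.36 and Cyp2a12 6.04. In the Cyp2c subfamily and the other Cyp2d genes, Cyp2c29 had 4.85, Cyp2d40 4.73, Cyp2d10 4.44, Cyp2c70 3.49 and Cyp2c55 3.41. Cyp2u1 had 3.00 and Cyp3a13 2.39. The fatty acid hydroxylases of family 4 were Cyp4a32 with 4.88, Cyp4f15 with 2.88, Cyp4f13 with 1.82 and Cyp4v3 with 1.81. The negative values were Cyp3a16 with -14.05, Cyp2b13 with -12.99 and Cyp2c69 with -4.09. For Cyp2b13 and Cyp3a16 a group had 0 counts, so these fitted values are no bounds. The fresh Yap-/- libraries lack Y-linked transcripts and the culture libraries do not, so that the genotype and this difference cannot be told apart in these values.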

How the results depend on the processing

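Of 340 counts of called genes or subfamilies recomputed under the alternatives, 296 stayed within 1.5 times the value reported and 44 did not. Of the genes called against FH, those that passed in every alternative that was run were 25 of 39 in BM 1D, 21 of 39 in BM 3D, 38 of 48 for BM 3W, and 7 of 20 for LBDXL 3W. Of those called against BM 3W, 24 of 43 passed throughout in LBDXL 3W, and with the Yap-/- label 18 of 32. In the other comparisons 0 of 5 did so for BM 3D against BM 1D and 10 of 21 for BM 3W against BM 3D. For FH Yap-/- against FH it was 1 of 7, and for the interaction 8 of 21. BM 3D against BM 1D moved from 5 calls to 12 with DESeq2, 9 without the filter and 0 with those groups alone (7 higher and 10 lower at an unadjusted p under 0.05). BM 3W against BM 3D moved from 21 to 13 with the groups alone and 13 with limma on unfiltered FPKM. FH Yap-/- against FH moved from 7 to 44 with the groups alone, 14 with limma on log2(FPKM + 1) and 12 without its filter. The subfamilies of LBDXL 3W against BM 3W moved from 19 to 12 with the groups alone and 12 with limma, and those of BM 3W Yap-/- from 13 to 8 with limma. One value reversed, Cyp3a16 in BM 3W Yap-/- against BM 3W, at 0.46 with limma on unfiltered FPKM. The causes were not tested.

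With single libraries left out, the calls ranged from 30 to 43 in BM 1D, 28 to 42 in BM 3D, 41 to 48 in BM 3W and 9 to 26 in LBDXL 3W against FH, 1 to 13 in BM 3D against BM 1D, 11 to 27 in BM 3W against BM 3D, 34 to 45 in LBDXL 3W and 20 to 36 in BM 3W Yap-/- against BM 3W, 1 to 9 in FH Yap-/- against FH, and 10 to 25 for the interaction. Subfamilies ranged from 14 to 18 in BM 3W against FH, 4 to 12 in LBDXL 3W against FH, 13 to 20 in LBDXL 3W and 7 to 15 in BM 3W Yap-/- against BM 3W. A group left with 1 library is assumed to vary like the others. The labels do not say that equal replicate numbers pair the libraries, whose deviations correlated at -0.04 to 0.49. With the replicate number as a block, the calls were 41, 38, 47 and 20 against FH in the order above, 4, 18, 44, 31, 7 and 21 in the other comparisons, and 18, 7, 20 and 12 for subfamilies, none of which moved a count by over 1.5 times.

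Scaling by total counts shifted all genes. Higher and lower genes of the 14100 became 7064 and 1351 in BM 1D, 7575 and 1038 in BM 3D, 9282 and 1364 in BM 3W and 3593 and 822 in LBDXL 3W against FH, 1135 and 6650 in LBDXL 3W and 798 and 5053 in BM 3W Yap-/- against BM 3W, and 463 and 2780 for the interaction. Median log2 over all genes went from 0.17 to 1.46 in BM 3W against FH. Among the P450 genes 7 were then higher and 38 lower in BM 3W against FH, 33 higher and 5 lower in LBDXL 3W and 25 higher and 5 lower in BM 3W Yap-/- against BM 3W. Depth limits the 26 untested genes, and 2 libraries a group limit all tests.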
